A study of Mus musculus with 6 samples.

Results

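*Camkv* and 9 other genes of the calmodulin kinase family were followed in primary mouse neurons in which the potassium channel gene *Kcna1* was targeted for activation. The 10 genes were taken by symbol from the 50508 symbols listed for each library, and all 10 were above 0 in all 6 libraries. *Camkv* was chosen by its values in these same libraries, which were clearly higher in the sgKcna1 neurons, so its difference is given as a description without a test. The other 9 (*Camk2a*, *Camk2b*, *Camk2d*, *Camk2g*, *Camk2n1*, *Camk4*, *Camk1d*, *Camkk1* and *Camkk2*) were listed by family. RNA came from neurons of newborn C57Bl/6J mice, transduced on the first day in vitro with a lentivirus for Ctrl-dCas9A (treatment sgLacZ, a guide against the bacterial LacZ gene, 3 libraries) or for Kcna1-dCas9A (treatment sgKcna1, the guide sg19 against the *Kcna1* promoter, 3 libraries). Both vectors express a nuclease-dead Cas9 fused to the activator VP160 from the Ef1alpha promoter, which is not restricted to neurons. The labels name hippocampus as the tissue, the paper's methods name cortical neurons, and its sections give differing culture ages. The methods state in general that experiments were repeated independently, but do not tie the 3 libraries of a group to separate cultures, and p-values therefore measure the spread between these libraries, which may be technical.

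Calcium that enters an active neuron binds calmodulin, and the complex switches on the calmodulin-dependent kinases. CaMKII, built from the products of *Camk2a*, *Camk2b*, *Camk2d* and *Camk2g*, is abundant at excitatory synapses and is needed for lasting synaptic strengthening, with the alpha subunit appearing later in forebrain development than the beta subunit. CaMKI and CaMKIV form a cascade below the kinase kinases CaMKK1 and CaMKK2, which leads among others to the transcription factor CREB. *Camkv* encodes a vesicle-associated relative of these kinases that binds calmodulin but has no known kinase activity and is expressed mainly in forebrain neurons.

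As the guide is what separates the groups, the site of sg19 is shown beside the closest match before the start of *Camkv*. In NCBIM37 (mm9), sg19 matched 1 position without a mismatch next to an NGG motif, at chr6:126595930-126595949 on the plus strand. This site is intergenic and lies 111 bp before the start of *Kcna1*. *Camkv* lies on the plus strand of chromosome 9 from 107838251 to 107852022, and no other gene of the annotation (GENCODE vM1) overlaps it. The closest match kept within 500 bp before its annotated starts was at chr9:107838128-107838147 on the plus strand, intergenic and 104 bp before a start. Only 1 match per gene was kept, so others with as many mismatches may exist. Both are written 5′ to 3′ with the adjoining NGG motif in capitals:
sg19 site before Kcna1: agtcaatgatcacatcctccTGG
closest match before Camkv: cgagtgggattccagtctccGGG
The match before *Camkv* differed from the guide at 10 of 20 bases. With the guide's base first and positions counted from 1 at its 5′ end, the differences were A1C, T3A, C4G, A5T, A6G, T7G, C11T, A12C, T15G and C16T. Of 33922 genes searched in this way, 66.8% had a match with 10 or fewer mismatches. Over the 10 family members the closest match had from 7 (*Camk2n1*) to 11 (*Camk2g*) mismatches, and 2.36% of all genes had one with 7 or fewer. Sites further away were not searched, and a match in letters is not a binding site.

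The values are whole numbers scaled to 1000000 per library, and their totals lay between 999047 and 999717. How many reads they stand for is unknown. *Kcna1* was listed at 16 in each sgLacZ library and at 68, 47 and 65 in the sgKcna1 libraries, a rise of 1.83 on the log2 scale (limma adjusted p = 0.034) that fits the labels, with adjusted p from 0.0186 to 0.143 when 1 library was left out. One library stood apart from its group. Over 8050 genes with mean values of 10 or more, sgLacZ replicate 3 differed from the other sgLacZ libraries by a root-mean-square of 0.459 and 0.427 on the log2 scale, and from sgKcna1 replicates 1, 2 and 3 by 0.353, 0.393 and 0.460, so it was nearer to 2 sgKcna1 libraries than to its own group. In all 10 family members its value lay on the sgKcna1 side of the mean of the other two sgLacZ libraries, and the results of the members are therefore also given without it. Of the 19504 genes above 0 in at least 1 library, 226 (1.16%) had an adjusted p under 0.05 in limma with Benjamini-Hochberg adjustment, 68 higher and 158 lower (963 higher and 758 lower with median-of-ratios factors). That number was 2711 (14.2% of the genes then tested) without sgLacZ replicate 3 and 0 without any 1 of the other 5 libraries (3332 to 3853 with an unadjusted p under 0.05 in limma). Log2 differences below are sgKcna1 minus sgLacZ of mean log2(value + 1), which understates changes of low values.

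*Camkv* was listed at 173, 163 and 199 in sgLacZ and at 329, 313 and 338 in sgKcna1. The lowest sgKcna1 library was thus far above the highest sgLacZ library, with little spread in either group. The means were 178 ± 18.6 (SD, n = 3) and 327 ± 12.7 (SD, n = 3), a ratio of 1.83 and a log2 difference of 0.87. This log2 difference was 0.96 without sgLacZ replicate 3, and it lay between 0.81 and 0.96 over the 10 alternatives computed. Among the genes with mean values of 10 or more, it was the 175th highest of 8050, above their 95th percentile of 0.68. By its mean value, *Camkv* was the 872nd highest gene in sgLacZ and the 406th highest in sgKcna1. Ratios to genes of the same library do not depend on the scaling to a common total. The ratio of *Camkv* to each of 8 pan-neuronal marker genes was higher in sgKcna1 without overlap for 7 of them, and the ratio of the group means ran from 1.23 (*Nefl*) to 2.73 (*Snap25*) over these 7. All these ratios share the values of *Camkv*, which was chosen for its rise, so they are not independent support for it. The markers moved as well: *Snap25*, *Map2* and *Elavl3* were lower in sgKcna1 without overlap, and *Tubb3* and *Nefl* were higher. The exception was the neuronal tubulin gene *Tubb3*, where *Camkv* was at 0.0929, 0.0930 and 0.0764 of its value in sgLacZ and at 0.0853, 0.0972 and 0.0736 in sgKcna1. The size of the difference thus depended on the marker, and against *Tubb3* the groups overlapped. Against *Camk2a* the ratio overlapped between the groups too, with 1.97, 1.75 and 1.605 in sgLacZ and 2.25, 2.16 and 1.93 in sgKcna1. *Camkv* and *Camk2a* were thus both higher in sgKcna1, with a ratio between them that moved much less than either.

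**Figure D1:**
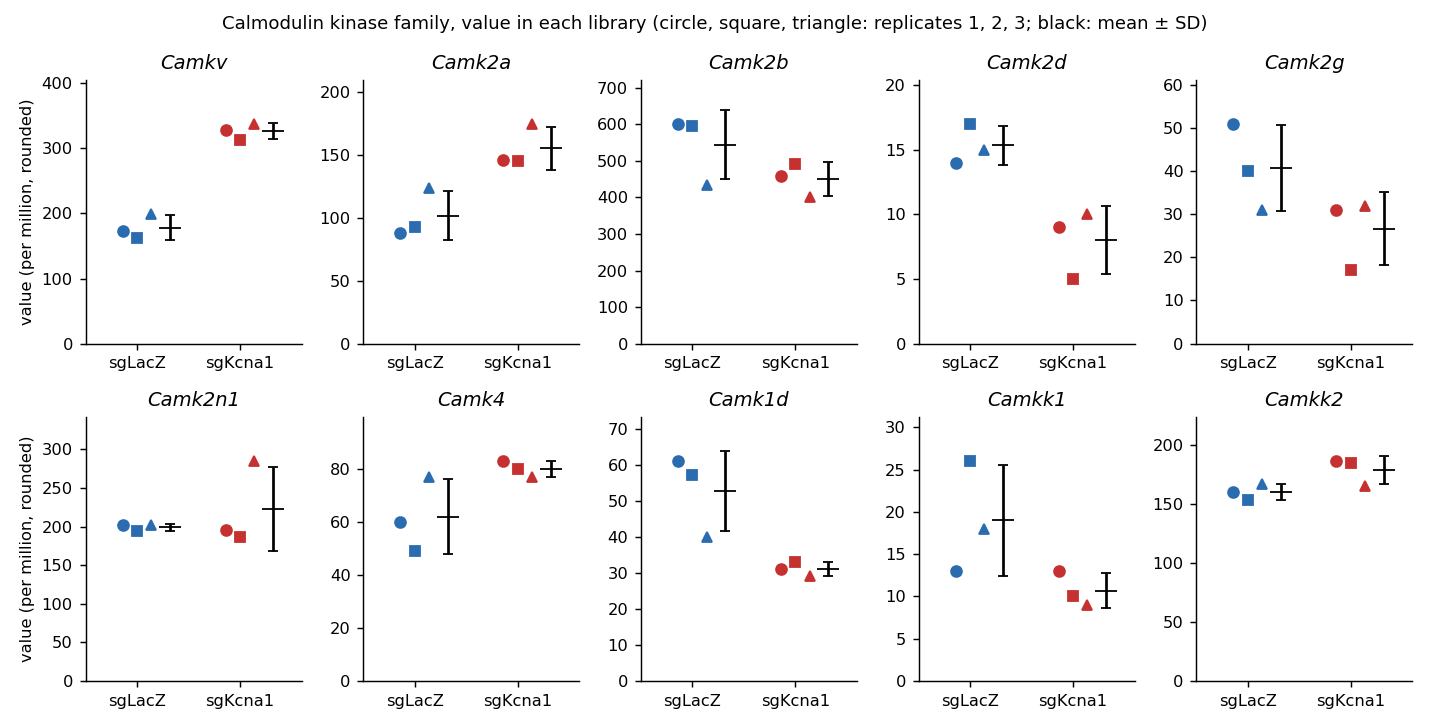
Value (scaled to 1000000 per library, rounded) of the 10 family members in each library, on axes that start at 0, with replicates 1, 2 and 3 as circle, square and triangle and the mean ± SD in black. The groups do not overlap for *Camkv* (163 to 199 against 313 to 338), *Camk2a*, *Camk2d* and *Camk1d*, and sgLacZ replicate 3 lies towards the sgKcna1 values in several panels.

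*Camk2a*, the alpha subunit of CaMKII, was listed at 88, 93 and 124 in sgLacZ and at 146, 145 and 175 in sgKcna1. All sgKcna1 libraries were above all sgLacZ libraries, and replicate 3 was the highest of each group. The log2 difference was 0.62 (standard error 0.15, 95% interval 0.25 to 0.98) and did not pass the threshold (limma adjusted p = 0.069). Without sgLacZ replicate 3 it was 0.77 with a limma adjusted p of 0.026. *Camk2b*, the beta subunit, on the minus strand of chromosome 11 from 5869647 to 5966365, was the most abundant member. It was listed at 602, 597 and 435 in sgLacZ and at 459, 493 and 400 in sgKcna1. The groups overlapped because of sgLacZ replicate 3, whose 435 was below 2 of the sgKcna1 values. The log2 difference was -0.26 (standard error 0.15, 95% interval -0.62 to 0.10, limma adjusted p = 0.34) and -0.42 without that library (limma adjusted p = 0.063).

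The other 2 CaMKII subunits were low. *Camk2d*, the delta subunit (chromosome 3, 126299220 to 126547972, plus strand), was listed at 14, 17 and 15 in sgLacZ and at 9, 5 and 10 in sgKcna1, without overlap. Its log2 difference was -0.90 (standard error 0.26, 95% interval -1.52 to -0.29, limma adjusted p = 0.094), the largest in size among the members with all 6 libraries, at values where rounding to whole numbers is coarse. The predicted gene Gm15551 overlaps it on the opposite strand, and the reads were stranded, but no source used here says whether they were counted by strand. Without sgLacZ replicate 3 the log2 difference was -0.92 (limma adjusted p = 0.14), smaller in size than the 0.96 of *Camkv*. *Camk2g*, the gamma subunit (chromosome 14, 21554097 to 21613310, minus strand), was listed at 51, 40 and 31 in sgLacZ and at 31, 17 and 32 in sgKcna1. The groups overlapped, with a log2 difference of -0.61 (standard error 0.28, 95% interval -1.28 to 0.05, limma adjusted p = 0.25), and -0.79 without sgLacZ replicate 3 (limma adjusted p = 0.20). Without sgKcna1 replicate 2, the library at 17, it was -0.33 (limma adjusted p = 0.43).

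Seen as shares of the 4 subunit genes within each library, *Camk2a* had the larger share in sgKcna1. Reads come from the 3′ ends of transcripts, so values were compared between genes without division by length. *Camk2a* made up 11.7%, 12.4% and 20.5% of the 4 genes in sgLacZ and 22.6%, 21.97% and 28.4% in sgKcna1. *Camk2b* made up 79.7%, 79.9% and 71.9% in sgLacZ and 71.2%, 74.7% and 64.8% in sgKcna1. Thus *Camk2b* remained the main subunit gene in all 6 libraries, 6.84, 6.42 and 3.51 times the value of *Camk2a* in sgLacZ and 3.14, 3.40 and 2.29 times in sgKcna1. The log2 ratio of *Camk2a* to *Camk2b*, which does not depend on the scaling, was -2.41 ± 0.53 (SD, n = 3) in sgLacZ and -1.53 ± 0.30 (SD, n = 3) in sgKcna1, a difference of 0.88. There was no overlap, and the two-sided exact permutation test gave p = 0.1, which is the lowest possible with 3 libraries a group (0.2 adjusted over 8 shares and ratios tested). Without sgLacZ replicate 3 the difference was 1.18 (exact permutation test, p = 0.2, the lowest possible once 1 library is left out). The ratio in sgLacZ replicate 3, at -1.80, lay next to the lowest sgKcna1 value of -1.76. The sum of the 4 genes was 755, 747 and 605 in sgLacZ and 645, 660 and 617 in sgKcna1, and overlapped (exact permutation test, p = 0.4).

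**Figure D2:**
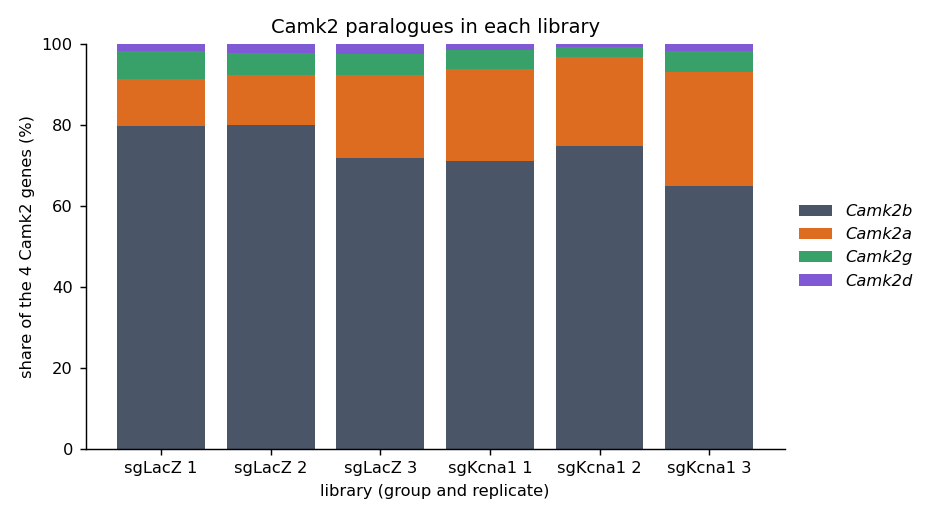
Share (%) of *Camk2b*, *Camk2a*, *Camk2g* and *Camk2d* in the sum of the 4 genes, as 1 stacked bar per library. The *Camk2a* segment runs from 11.7% to 20.5% in sgLacZ and from 21.97% to 28.4% in sgKcna1, with sgLacZ replicate 3 close to the sgKcna1 libraries.

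*Camk2n1* (chromosome 4, 138010229 to 138016038, plus strand) encodes a small protein that binds and inhibits active CaMKII. It was listed at 202, 194 and 202 in sgLacZ and at 195, 187 and 285 in sgKcna1. A single library, sgKcna1 replicate 3, was high, and the remaining 5 lay between 187 and 202. The log2 difference was 0.13 (standard error 0.16, 95% interval -0.26 to 0.52, limma adjusted p = 0.60), and it was 0.21, 0.24 and -0.06 without sgKcna1 replicates 1, 2 and 3 and 0.14 without sgLacZ replicate 3 (limma adjusted p = 0.66). Relative to the sum of the 4 CaMKII genes, the inhibitor gene was at 0.268, 0.260 and 0.334 in sgLacZ and at 0.302, 0.283 and 0.462 in sgKcna1, and the groups overlapped (exact permutation test, p = 0.5).

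*Camk4*, the nuclear kinase that phosphorylates CREB, was listed at 60, 49 and 77 in sgLacZ and at 83, 80 and 77 in sgKcna1. The groups touched at 77, the value of sgLacZ replicate 3 and of sgKcna1 replicate 3. The log2 difference was 0.39 (standard error 0.17, 95% interval -0.01 to 0.78, limma adjusted p = 0.22), and without sgLacZ replicate 3 it was 0.55 with a limma adjusted p of 0.041. Without sgLacZ replicate 2, the lowest library, it was 0.23 (limma adjusted p = 0.43). The gene 2310026I22Rik overlaps *Camk4* on the opposite strand. *Camk1d*, a CaMKI isoform (chromosome 2, 5214503 to 5635561, minus strand), went the other way, with 61, 57 and 40 in sgLacZ and 31, 33 and 29 in sgKcna1. All sgKcna1 libraries were below all sgLacZ libraries, and sgLacZ replicate 3 was the closest to them. The log2 difference was -0.73 (standard error 0.17, 95% interval -1.14 to -0.31, limma adjusted p = 0.065). Without sgLacZ replicate 3 it was -0.91 with a limma adjusted p of 0.019. The predicted gene Gm13216 overlaps *Camk1d* on the opposite strand.

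The 2 kinase kinases, which phosphorylate and activate CaMKI and CaMKIV, had unlike values. *Camkk1* (chromosome 11, 72832510 to 72855575, plus strand) was low, at 13, 26 and 18 in sgLacZ and 13, 10 and 9 in sgKcna1. The groups met at 13, and the log2 difference was -0.74 (standard error 0.27, 95% interval -1.38 to -0.10, limma adjusted p = 0.16), or -0.75 without sgLacZ replicate 3 (limma adjusted p = 0.23). *Camkk2* (chromosome 5, 123183213 to 123229391, minus strand), whose product also activates the energy sensor AMPK, was listed at 160, 153 and 167 in sgLacZ and at 186, 184 and 165 in sgKcna1. These groups overlapped through sgKcna1 replicate 3, with a log2 difference of 0.15 (standard error 0.09, 95% interval -0.06 to 0.37, limma adjusted p = 0.35), or 0.19 without sgLacZ replicate 3 (limma adjusted p = 0.21). *Camkk2* was 12.3, 5.88 and 9.28 times *Camkk1* in sgLacZ and 14.3, 18.4 and 18.3 times in sgKcna1. The log2 ratio differed by 0.89 between the groups without overlap (exact permutation test, p = 0.1, and 0.2 adjusted over the 8 tests).

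**Figure D3:**
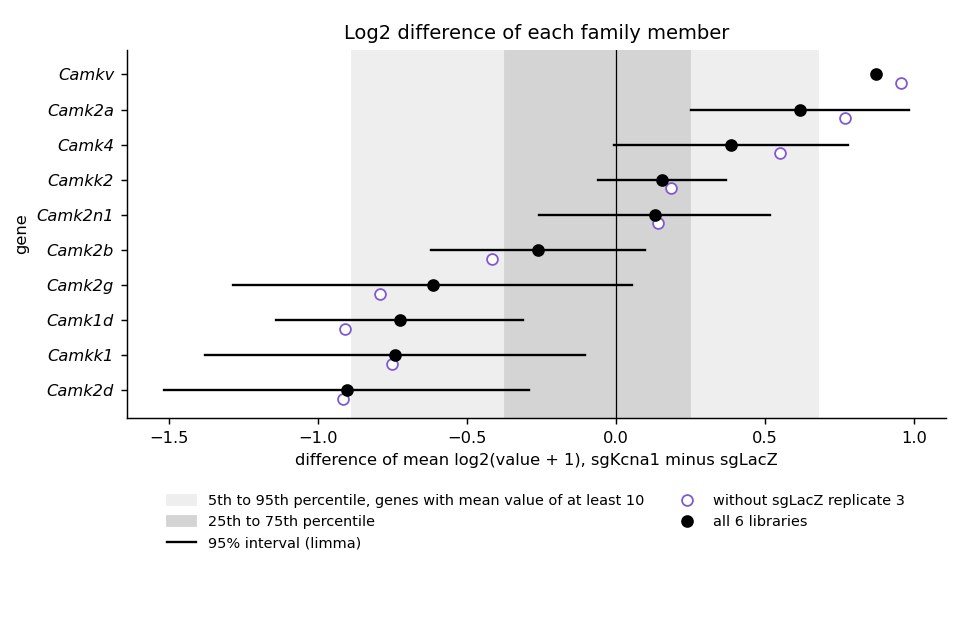
Difference of mean log2(value + 1), sgKcna1 minus sgLacZ, for the 10 family members with all 6 libraries (filled points, bars for the 95% interval of limma) and without sgLacZ replicate 3 (open points). *Camkv* has no bar because it was chosen for this difference. Grey bands give the quartiles and the 5th to 95th percentiles of the genes with mean values of 10 or more. With all 6 libraries, differences run from -0.90 (*Camk2d*) to 0.87 (*Camkv*).

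Of the 9 members other than *Camkv*, 0 had an adjusted p under 0.05 in limma, where 1.16% of all genes tested did, and 4 (*Camk2a*, *Camk2d*, *Camk1d* and *Camkk1*) had an unadjusted p under 0.05. This unadjusted level was reached by 23.2% of all genes tested and by 39.7% of those with mean values of 10 or more, to which the 9 members belong, so the share of members is close to that of genes at like values. *Camk2a* was higher without overlap between the groups, and *Camk2d* and *Camk1d* were lower without overlap. Among genes with mean values of 10 or more, 39.8% did not overlap, 15.9% higher and 23.9% lower, and among all genes tested 22.2% did not, 8.98% higher and 13.3% lower. With sgLacZ replicate 3 left out, 3 of the 9 members were higher without overlap (*Camk2a*, *Camk4* and *Camkk2*) and 4 lower (*Camk2b*, *Camk2d*, *Camk2g* and *Camk1d*), beside 27.1% and 35.4% of genes with mean values of 10 or more. The median log2 difference of the 9 members was -0.26, beside -0.06 for these genes. Without sgLacZ replicate 3, 3 of the 9 had an adjusted p under 0.05 in limma, *Camk2a* and *Camk4* higher and *Camk1d* lower, where 14.2% of all genes did (the share at mean values of 10 or more was not computed). Other processing moved the background as well, to 3.21% of genes with a pseudocount of 0.1 and 1.03% without the intensity trend, where 0 of the 9 members passed in limma (4 and 4 unadjusted), and to 8.82% with median-of-ratios factors, where *Camk2a* and *Camk1d* passed. It was 9.07% without the most abundant gene, Gm42418, where *Camk2d* passed too. The family thus did not move in 1 direction. *Camk2a*, *Camk4*, *Camkk2* and *Camk2n1* had differences above 0, and *Camk2b*, *Camk2d*, *Camk2g*, *Camk1d* and *Camkk1* below 0.

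The order of the levels within the family was nearly the same in both groups, apart from *Camkv*. In sgLacZ the mean values ran from *Camk2b* (545) through *Camk2n1* (199), *Camkv* (178), *Camkk2* (160.0), *Camk2a* (102), *Camk4* (62), *Camk1d* (52.7), *Camk2g* (40.7) and *Camkk1* (19) to *Camk2d* (15.3). There, *Camkv* overlapped with both of its neighbours, *Camk2n1* and *Camkk2*, between libraries. *Camk4* with *Camk1d*, *Camk1d* with *Camk2g*, and *Camkk1* with *Camk2d* overlapped as well. In sgKcna1, *Camkv* with a mean of 327 took the second place between *Camk2b* (451) and *Camk2n1* (222), and it overlapped with neither. *Camkk2* with *Camk2a*, *Camk1d* with *Camk2g*, and *Camkk1* with *Camk2d* overlapped there.

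The profile of *Camkv* over the 6 libraries was set against that of every gene with mean values of 10 or more, by the root-mean-square difference of log2(value + 1) after each gene was centred on its own mean. The 5 closest were *Slc27a4* (0.055), a fatty acid transport protein, *Rab11fip3* (0.064), an effector of the recycling endosome GTPase Rab11, *Nos1ap* (0.076), an adaptor of neuronal nitric oxide synthase, *Diras1* (0.080), a small GTPase of the Ras family, and *Zfp13* (0.085), a zinc finger protein. *Slc27a4*, for example, was listed at 105, 97 and 116 in sgLacZ and at 178, 176 and 197 in sgKcna1. As these profiles are dominated by the difference between the groups, closeness here mainly says that a gene had a difference of like size. *Pnck*, which encodes a CaMKI isoform, was the 13th closest of 8049 genes (0.102), and *Camk2a* the 146th (0.167). *Camk4* was the 892nd, and *Camk2d* at 7620 was the farthest of the family.

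**Figure D4:**
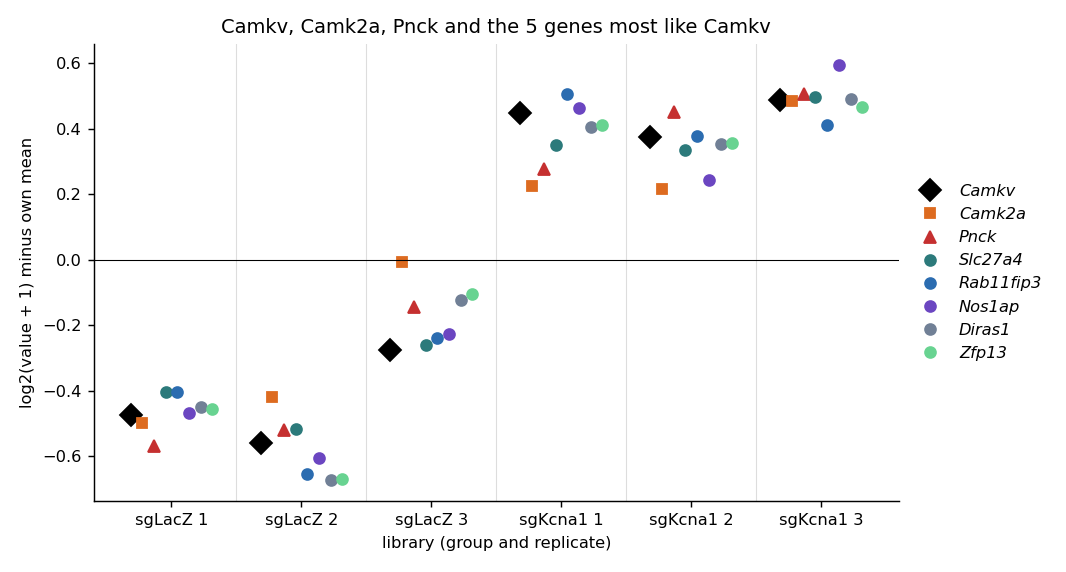
Log2(value + 1) minus the gene's own mean over the 6 libraries, for *Camkv* (diamonds), *Camk2a* (squares), *Pnck* (triangles) and the 5 genes with the closest profile (circles). All 8 genes lie below 0 in the sgLacZ libraries and above 0 in the sgKcna1 libraries, and sgLacZ replicate 3 is the highest of its group for each.

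Around the family, 76 other genes of the calcium-calmodulin pathway were read from the same fit, of which 73 were above 0 in at least 1 library. Only *Pnck* passed the threshold, 1 of 73 genes, where 1.16% of all genes tested did. *Pnck* was listed at 113, 117 and 152 in sgLacZ and at 204, 230 and 239 in sgKcna1, without overlap. Its log2 difference was 0.82 (standard error 0.14, limma adjusted p = 0.0496), and with any 1 of the 5 libraries other than sgLacZ replicate 3 left out it no longer passed, nor did it without the intensity trend (limma adjusted p = 0.098), where the 1 pathway gene that passed was *Fosb*, listed at 0 in each sgLacZ library and at 1, the smallest rounded value, in each sgKcna1 library. Of the 73 genes, 25 had an unadjusted p under 0.05 in limma, 15 higher and 10 lower. This was reached by 23.2% of all genes tested and by 39.7% of those with mean values of 10 or more. Their median log2 difference was 0.01. With sgLacZ replicate 3 left out, 18 pathway genes passed in limma, 11 higher and 7 lower, beside 14.2% of all genes tested. For that setting, the share among genes with mean values of 10 or more was not computed. The genes named in the following sentences, other than *Pnck*, were chosen after their values were seen. Among the 15 measured other kinases and inhibitors of the CaMK group, *Camk1g*, a further CaMKI isoform, was listed at 60, 53 and 61 in sgLacZ and at 75, 80 and 83 in sgKcna1 (limma adjusted p = 0.060). *Dapk1*, a death-associated kinase, was listed at 82, 61 and 48 and at 42, 36 and 30 (limma adjusted p = 0.086). *Camk1*, the alpha isoform of CaMKI, was listed at 17, 17 and 15 and at 19, 14 and 17, and overlapped (limma adjusted p = 0.98). Of these CaMKI genes and *Camk1d*, *Pnck* was the one that passed.

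*Calm2*, a calmodulin gene, was listed at 854, 800 and 1290 in sgLacZ and at 1297, 1226 and 1224 in sgKcna1. sgLacZ replicate 3 had the *Calm2* level of the sgKcna1 libraries, and the gene did not pass the threshold (log2 difference 0.38, limma adjusted p = 0.26). Without that library the log2 difference of *Calm2* was 0.59 (limma adjusted p = 0.018), and without sgLacZ replicate 2 it was 0.25 (limma adjusted p = 0.49). *Nrgn*, which encodes the calmodulin-binding protein neurogranin, was listed at 70, 80 and 93 and at 113, 101 and 139 (limma adjusted p = 0.10). Over the 7 measured calmodulin and buffer genes, 0 passed the adjusted threshold and 2 had an unadjusted p under 0.05, both higher, with a median log2 difference of -0.05. The unadjusted level was reached by 23.2% of all genes tested and by 39.7% of those with mean values of 10 or more.

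A list of calcineurin, the calcium-dependent phosphatase, with its regulators and the CaMK phosphatases *Ppm1e* and *Ppm1f* had 11 measured genes, of which 0 passed in limma and 6 had an unadjusted p under 0.05, 3 in each direction, beside 23.2% of all genes tested and 39.7% of those with mean values of 10 or more. *Ppp3r1*, its regulatory subunit, was listed at 422, 453 and 395 in sgLacZ and at 272, 310 and 256 in sgKcna1 (log2 difference -0.60, limma adjusted p = 0.051). *Rcan2*, an inhibitor of calcineurin, was listed at 46, 51 and 83 and at 98, 100 and 126 (limma adjusted p = 0.077). Among the 14 genes for CREB, MEF2, class IIa HDAC and related proteins on which the kinases act, 0 passed in limma. Of these 14, 4 had an unadjusted p under 0.05, 2 in each direction, beside 23.2% of all genes tested. *Mef2c*, a transcription factor of excitatory neurons, was listed at 221, 227 and 305 and at 431, 340 and 444 (limma adjusted p = 0.060). *Hdac4*, a histone deacetylase that CaMK phosphorylation keeps out of the nucleus, was listed at 98, 101 and 128 and at 179, 133 and 183 (limma adjusted p = 0.087). Lower without overlap were *Mef2a*, at 77, 73 and 60 against 52, 42 and 47 (limma adjusted p = 0.067), and *Mef2d*, at 62, 56 and 54 against 39, 45 and 43 (limma adjusted p = 0.077), both of the same family as *Mef2c*. Among the 8 CREB-regulated activity genes, 0 passed and 1 had an unadjusted p under 0.05, with a median log2 difference of 0.00.

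Of the 13 synaptic substrates and partners of CaMKII, 0 passed in limma and 4 had an unadjusted p under 0.05, beside 23.2% of all genes tested and 39.7% of those with mean values of 10 or more. *Dlg4*, the postsynaptic scaffold PSD-95, was listed at 338, 374 and 276 in sgLacZ and at 198, 217 and 227 in sgKcna1 (log2 difference -0.61, limma adjusted p = 0.056). Its groups did not overlap, and the other 3 genes with an unadjusted p under 0.05 were higher in sgKcna1. Of the 5 substrates of the kinase kinases outside the family, 0 passed and 3 had an unadjusted p under 0.05, all lower without overlap, beside 39.7% at that level and 23.9% lower without overlap among genes with mean values of 10 or more. They included *Akt1* (95, 105 and 81 against 66, 65 and 55, limma adjusted p = 0.056) and *Prkaa1*, a catalytic subunit of AMPK (21, 13 and 13 against 9, 8 and 9, limma adjusted p = 0.10). Of the genes outside the family named from the lists, *Pnck*, *Camk1g*, *Dapk1*, *Calm2*, *Ppp3r1*, *Rcan2*, *Mef2a*, *Mef2c*, *Mef2d*, *Dlg4* and *Akt1* passed in limma without sgLacZ replicate 3, as did *Fosb*, and *Camk1*, *Nrgn*, *Hdac4* and *Prkaa1* did not.

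**Figure D5:**
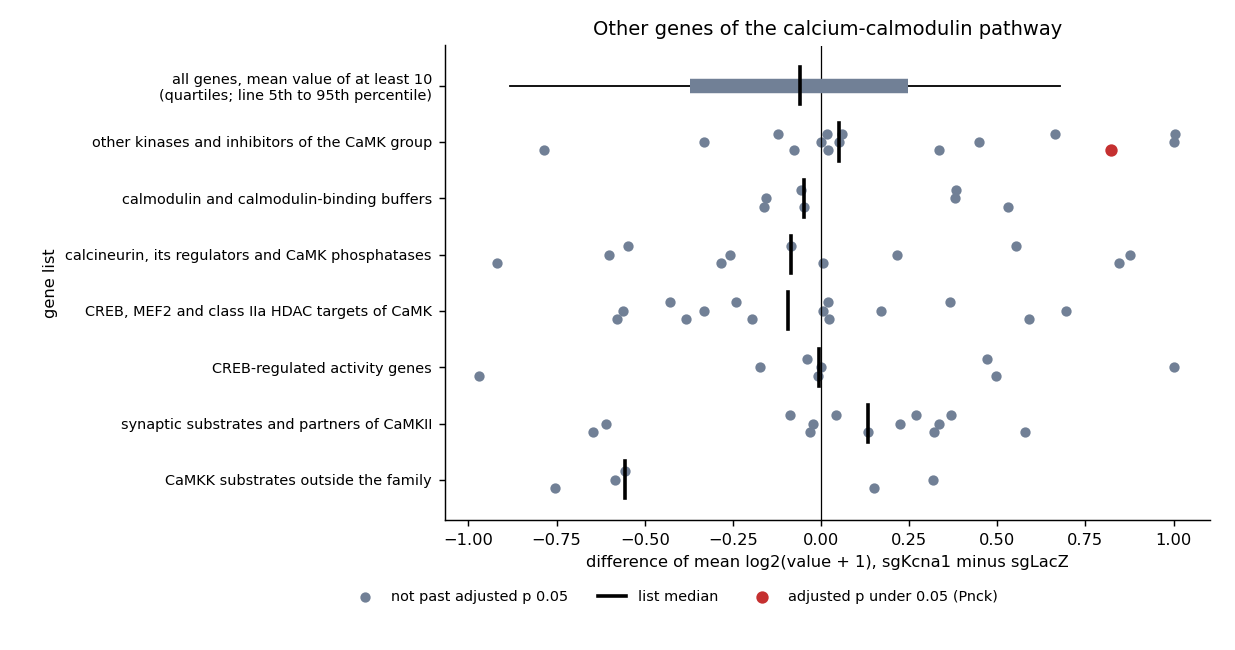
Difference of mean log2(value + 1), sgKcna1 minus sgLacZ, for each measured gene of 7 pathway lists (points), with the list median as a black line and the quartiles of all genes with mean values of 10 or more at the top. *Pnck* (0.82) is the only point past an adjusted p of 0.05, and all lists other than the 5 substrates of the kinase kinases have medians between -0.09 and 0.13.

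Markers of other cells also differed between the groups. Summed over 8 astrocyte markers, values lay between 917 and 1034 in sgLacZ and between 663 and 692 in sgKcna1, with 3 genes (*Aqp4*, *Aldoc* and *Sox9*) lower and past the threshold in limma, beside 1.16% of all genes tested. *Gfap* (means of 55 and 54.7) and *Aldh1l1* (9.33 and 9.0) overlapped, and without the intensity trend *Aldoc* and *Sox9* did not pass (limma adjusted p = 0.11 and 0.12). The 8 markers of dividing cells summed to between 117 and 123 in sgLacZ and to between 69 and 73 in sgKcna1, with 0 of them past the threshold in limma (6 lower with an unadjusted p under 0.05, a level that 23.2% of all genes tested and 39.7% of those with mean values of 10 or more reached). The 8 oligodendrocyte lineage markers, of which *Olig2* passed and *Mag* was at 0 throughout, summed to between 66 and 98 and between 40 and 44. *Olig2* did not pass without the intensity trend (limma adjusted p = 0.060), and *Mbp*, a myelin gene, was higher in sgKcna1, at 3, 3 and 2 against 7, 4 and 7. The 8 microglia markers, with *C1qa* past the threshold beside 1.16% of all genes tested, summed to between 23 and 28 in sgLacZ and to between 58 and 78 in sgKcna1. Of these markers, 5 were higher without overlap, beside 8.98% of all genes tested. *C1qc* (2, 2 and 1 against 1, 2 and 1), *Tyrobp* (2, 1 and 1 against 2, 2 and 1) and *Csf1r* overlapped. Rounding to whole numbers is coarse at such values. The sums of the 8 excitatory neuron markers overlapped between the groups, at 1383 to 1568 and 1320 to 1408, but single genes of the list moved in opposite directions. *Slc17a7* (33, 29 and 41 against 47, 54 and 57) and *Fezf2* were higher without overlap. *Neurod6* (512, 484 and 471 against 388, 361 and 362) was lower without overlap, and the others overlapped. The sums of the 8 inhibitory neuron markers also overlapped, at 266 to 306 and 254 to 300. Without *Sst* the other 7 inhibitory markers summed to 151 to 171 and 129 to 139, with no overlap. The 8 pan-neuronal markers summed to between 5345 and 6060 in sgLacZ and to between 6357 and 7839 in sgKcna1, of which *Tubb3*, a neuronal tubulin, alone held 1862, 1752 and 2605 and then 3855, 3221 and 4591. Without *Tubb3* the direction turned, and the other 7 summed to between 3455 and 3790 in sgLacZ and to between 3136 and 3345 in sgKcna1. None of the pan-neuronal, excitatory or inhibitory markers passed the threshold in limma, and 4, 3 and 3 of 8 had an unadjusted p under 0.05, beside 39.7% of genes with mean values of 10 or more. The 5 marker genes that passed with all 6 libraries also passed without sgLacZ replicate 3. None of them passed with any 1 of the other 5 libraries left out, where 0 of all genes did. The part of these markers in the differences of the family was not tested, and in bulk RNA fewer cells of a type and less RNA per cell cannot be told apart. Neuronal markers of both classes were thus detected in all libraries. Of the 6 hippocampal region markers, *Zbtb20* (means of 1386 and 1381) and *Lmo4* (636 and 720) held most of the sum, *Prox1* was at 138 and 88.3, and *Ociad2* (29.3 and 26), *Wfs1* (10 and 7.67) and *Nr3c2* (3 and 1.33) were low. The cortical markers *Tbr1* and *Fezf2* were detected as well.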

How the data were processed

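QuantSeq 3′ libraries of the sgLacZ group (3) and the sgKcna1 group (3) were used, grouped by the sample labels. Per the labels, the submitters' processing notes list STAR 2.7, featureCounts, DESeq2 and mm10, whereas the paper's methods give Bowtie2 and NCBI37/mm9 for these reads. The authors deposited 1 whole-number score per gene. The totals of just under 1000000, and a variance between replicates that is smaller than the mean for low genes (0.705 and 0.504 times the mean for genes with a mean from 4 to 8), show that it is a rounded per-million value, so no count test was run, and depth, intervals from counts and detection floors are unknown. The scaling step is not given in the sources used here.

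Genes above 0 in at least 1 library were fitted with limma 3.58.1 in R 4.3.3 (intensity trend, group as the only factor) on log2(value + 1), with Benjamini-Hochberg adjustment over all genes tested and a threshold of 0.05. Shares and ratios within a library were compared with two-sided exact permutation tests in scipy 1.17.1. Family members, gene lists and tests were chosen with earlier results of these data known. The text names all members, *Kcna1*, list genes past the threshold (at most 4 per pathway list and 3 per marker list), the 5 genes most like *Camkv*, and others where stated. The remaining marker genes and the cortical and calmodulin genes were named after their values were seen. Same-numbered libraries deviated from their group means with correlations across genes of 0.013, 0.030 and 0.047, so the numbers were not taken as pairs. Coordinates and the search for sg19 sites use NCBIM37 with GENCODE vM1. Alternatives were another pseudocount, low-value filters, rescaling, other variance models, the replicate block and each library left out. Some items of the lists are not reported here.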

Additional observations from a re-analysis of the deposited data

How the results depend on the processing

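The number of genes past the threshold, 226 as reported, was 627 with a pseudocount of 0.1, 1543 with mean values of 1 or more, 2289 with mean values of 10 or more, 1721 with median-of-ratios factors, 1768 without Gm42418 (the most abundant gene) and rescaled, 2884 with a robust variance and 201 without the intensity trend. With 1 library left out it ranged from 0 to 2711. For the 9 members other than *Camkv*, 0 as reported, the number past the threshold was 2 (*Camk2a*, *Camk1d*) with mean values of 1 or more and with median-of-ratios factors, 4 (also *Camk2d* and *Camkk1*) with mean values of 10 or more, 3 (*Camk2a*, *Camk2d*, *Camk1d*) without Gm42418 and 5 (also *Camk2g* and *Camkk1*) with a robust variance. Of all genes tested, 11.3% of 13604 passed with mean values of 1 or more and 28.4% of 8050 with mean values of 10 or more. That share was 8.82% with median-of-ratios factors, 9.07% without Gm42418 and 14.8% with a robust variance. With 1 library left out, the number past the threshold among the 9 members ranged from 0 to 3. For the pathway lists, 1 gene as reported, it was 4 with a pseudocount of 0.1, 11 and 18 with the mean value filters of 1 and 10, 13 with median-of-ratios factors, 12 without Gm42418, 20 with a robust variance, 1 (*Fosb* in place of *Pnck*) without the intensity trend and, with 1 library left out, from 0 to 18. A filter tests fewer genes, and for the other settings the cause was not tested. With the replicate block the numbers were 0 genes (4326 with an unadjusted p under 0.05 in limma), 0 members (4 unadjusted) and 0 pathway genes, and not every library correlated best with its own number. The log2 difference of *Camk2n1*, 0.13 as reported, ranged from -0.061 (without sgKcna1 replicate 3) to 0.241 with 1 library left out. All other differences of the 9 members kept their direction in all 14 alternatives, as did that of *Camkv* in its 10 and the *Camk2a* to *Camk2b* ratio (0.71 to 1.18 with 1 library left out). Their sizes moved. With median-of-ratios factors, *Camk2b* went from -0.26 to -0.17 and *Camkk2* from 0.15 to 0.24. As depth is unknown, the counting error behind low members such as *Camk2d* and *Camkk1* cannot be given.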
